A study of Mus musculus with 4 samples.

Results

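The transcripts described here are those of the inhibitors of cyclin-dependent kinases (CDKs), of p53 and its regulator Mdm2, and of the retinoblastoma protein Rb1. They were taken by name as 10 of the 24421 rows of the deposited count table: Cdkn1a, Cdkn1b and Cdkn1c of the Cip/Kip family, Cdkn2a, Cdkn2b, Cdkn2c and Cdkn2d of the Ink4 family, Trp53, Mdm2 and Rb1. RNA came from the superficial zone, or outermost layer, of the articular cartilage on the medial femoral condyle of the knee. The 2 donors were C57BL/6J mice, M04 and M05, sampled 8 weeks after surgery. In each mouse 1 knee had destabilization of the medial meniscus (DMM), a surgical model of osteoarthritis, and the other knee had sham surgery. Each knee gave 1 library, so there were 2 DMM and 2 sham libraries. Both animals carry the genotype wild type in the sample labels, but KO is written for M05 in the series' design text, so M05 and M04 are compared here only as 2 animals. The description field of each sham sample mentions a DMM-operated knee. Titles and treatment fields, which say sham, were followed. The labels give no age or sex.

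Cells stop dividing when CDKs are blocked. Cip/Kip proteins (p21 from Cdkn1a, p27 from Cdkn1b, p57 from Cdkn1c) bind cyclin-CDK complexes of several kinds, whereas Ink4 proteins bind CDK4 and CDK6 only and keep Rb1 in the form that holds back E2F transcription factors. p53 switches on Cdkn1a after DNA damage and other stress, and also Mdm2, the ubiquitin ligase that in turn removes p53. Cdkn2a encodes both p16Ink4a and p19Arf, and Arf blocks Mdm2. In cartilage, p16 and p21 are used as marks of senescent chondrocytes in ageing and osteoarthritis, and p57 is made as growth-plate chondrocytes leave the cell cycle.

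RefSeq's promoter table, on mouse build GRCm38.p6, held 11 windows for 8 of the 10 genes, each with 250 bases before and 50 after an annotated start. Cdkn1c and Rb1 were not matched. The 250 bases before the start are shown for the 2 starts of Cdkn1a, because a p53 site stands before only the upstream one among these windows, and for the 2 starts of Cdkn2a, because the count table has 1 row for both. Capitals mark matches, on either strand, to the p53 full site (with at most 1 mismatch), to GGGCGG (a GC box), to TTTNGCGC (an E2F-type sequence) or to TATAAA.
Cdkn1a upstream start (chr17:29090729-29090978, plus strand): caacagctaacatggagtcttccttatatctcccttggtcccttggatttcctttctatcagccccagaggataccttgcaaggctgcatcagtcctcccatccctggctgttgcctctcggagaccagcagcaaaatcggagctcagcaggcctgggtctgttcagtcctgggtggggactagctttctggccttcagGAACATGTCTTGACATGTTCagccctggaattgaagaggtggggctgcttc
Cdkn1a downstream start (chr17:29093519-29093768, plus strand): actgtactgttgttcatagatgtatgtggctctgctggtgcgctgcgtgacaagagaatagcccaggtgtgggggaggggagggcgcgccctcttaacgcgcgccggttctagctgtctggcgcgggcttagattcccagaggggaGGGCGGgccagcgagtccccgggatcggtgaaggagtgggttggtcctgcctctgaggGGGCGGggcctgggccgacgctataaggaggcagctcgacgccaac
Cdkn2a upstream start, of the Arf transcript (chr4:89294620-89294869, minus strand): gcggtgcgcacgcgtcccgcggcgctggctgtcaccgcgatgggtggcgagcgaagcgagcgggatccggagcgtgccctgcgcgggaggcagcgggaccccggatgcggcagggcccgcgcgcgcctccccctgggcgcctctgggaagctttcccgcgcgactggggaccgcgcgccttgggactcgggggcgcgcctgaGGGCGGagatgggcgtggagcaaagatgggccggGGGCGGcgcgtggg
Cdkn2a downstream start, of the p16 transcript (chr4:89282193-89282442, minus strand): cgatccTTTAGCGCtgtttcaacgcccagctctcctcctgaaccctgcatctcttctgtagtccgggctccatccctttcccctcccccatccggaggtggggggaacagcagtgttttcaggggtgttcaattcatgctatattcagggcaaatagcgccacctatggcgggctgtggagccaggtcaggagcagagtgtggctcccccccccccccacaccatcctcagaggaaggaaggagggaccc
The p53 site of Cdkn1a, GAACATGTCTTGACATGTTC, begins 51 bases before the upstream start and has 1 mismatch to the consensus. Such a site was found in 0.0884% of all 32817 promoter windows of the table. GGGCGG was found in 35.6%, TTTNGCGC in 1.38% and TATAAA in 13.6% of the windows of 300 bases. The Arf window was richer in G and C, at 78.4%, than the p16 window, at 60%. A match describes the letters only and is not a measured binding site, and none of the counts below can be assigned to a start.

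All 4 libraries held much RNA of blood and marrow and little of cartilage. The total count was 12712425 to 19336628 per library. The 11 cartilage markers, among them Col2a1 and Acan, held 0.140% to 0.754% of the counts, lowest in the sham library of M05, and none was at 0. The 6 erythroid markers held 11.6% to 15.4% and the 7 granulocyte markers 3.94% to 5.61%. Dividing marrow precursors also express CDK inhibitors, so the values below are those of a mixed tissue. In such bulk RNA, fewer cells of a type and less RNA per cell cannot be told apart.

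Per transcript length, the highest levels were those of Cdkn2d, which encodes the Ink4 protein p19Ink4d, and of Trp53. The deposited FPKM values, scaled by the authors for length and depth, averaged 59.7 ± 7.17 (SD, n = 4 libraries) for Cdkn2d and 44.2 ± 3.28 for Trp53. Cdkn2c, which encodes p18, followed at 23.2 ± 3.56 FPKM and Cdkn1a at 14.1 ± 2.23 FPKM. The ranges of these 4 genes over the libraries did not overlap with those of their neighbours in the order. Then came Cdkn1c (7.46 ± 1.99 FPKM), Rb1 (6.58 ± 0.910), Mdm2 (6.21 ± 1.22) and Cdkn1b (5.80 ± 1.31), whose ranges overlapped from each to the next. Cdkn2a, at 0.496 ± 0.437 FPKM, and Cdkn2b, at 0.265 ± 0.206, were lowest and overlapped as well. Both were listed at 0 FPKM in 1 library.

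**Figure D1:**
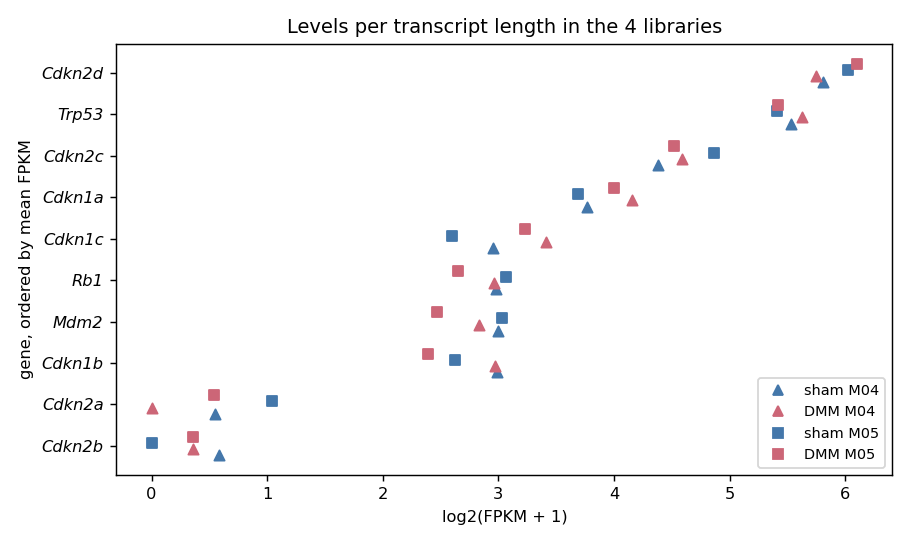
Level of each gene per transcript length, as log2(FPKM + 1) on the horizontal axis, with 1 point per library (triangles M04, squares M05, blue sham, red DMM). Cdkn2d and Trp53 lie highest in every library, and Cdkn2a and Cdkn2b lowest, with 1 library each at 0.

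The Ink4 family was thus made up almost wholly of its 2 widely expressed members. Cdkn2c and Cdkn2d held 98.7% to 99.6% of the summed Ink4 FPKM in every library. The summed Cip/Kip level, sham before DMM, was 26.2 and 33.3 FPKM in M04 and 22.2 and 27.6 FPKM in M05. The summed Ink4 level was 75.7 and 75.8 FPKM in M04, and 93.1 and 90.3 FPKM in M05. The DMM library was the higher one for Cip/Kip in both mice. For the Ink4 sums in FPKM, the mice stood apart more than the knees did. By CPM of the library total, both main Ink4 genes overlapped between the mice. On that scale Cdkn2c had 36.4 and 42.0 CPM in M04 and 41.0 and 34.2 CPM in M05, sham before DMM. Cdkn2d had 60.9 and 63.9 CPM in M04 and 60.2 and 68.7 CPM in M05. The separation of the mice thus depended on the scaling. The FPKM sums were not tested.

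In the comparison of DMM with sham knees, none of the genes passed the test. Cdkn2a and Cdkn2b had too few counts to be tested, and 0 of the other 8 had an adjusted p under 0.05 in edgeR's quasi-likelihood test with the mouse as a term. Over all 13103 genes tested, 0.649% passed. At an unadjusted p under 0.05 the number was 3 of 8 (Cdkn1a, Cdkn1c and Mdm2), against 5.20% of all genes. DESeq2 gave 0 of 8 at an unadjusted p under 0.05, and limma on log2(FPKM + 1) gave 1 of 8. The 8 fold changes had a median of -0.06 on the log2 scale, and all tested genes one of -0.01. Their median size was 0.19, against 0.16 over all tested genes.

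**Figure D2:**
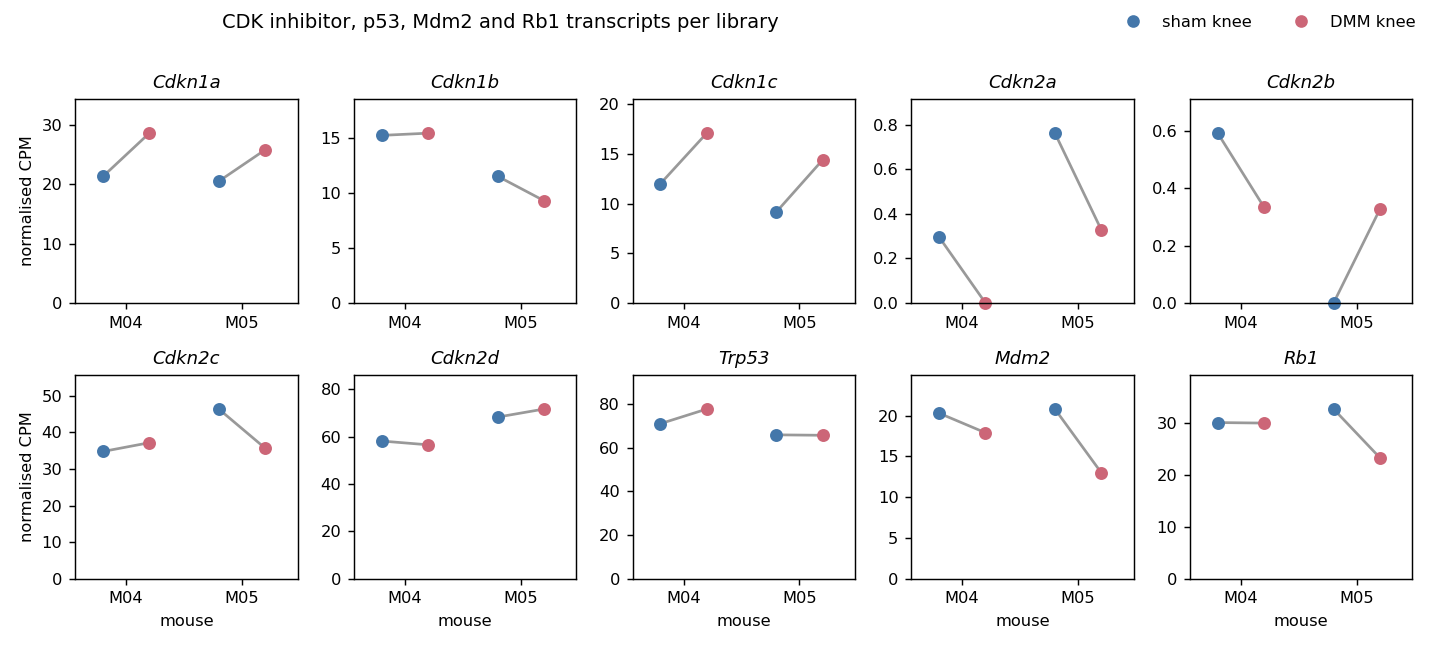
Normalised CPM (CPM, scaled by edgeR's TMM factors) of each gene on the vertical axis, which starts at 0 in each panel, by mouse, with a grey line from the sham knee (blue) to the DMM knee (red). Cdkn1a and Cdkn1c were higher and Mdm2 lower in the DMM knee of both mice, Rb1 differed little in M04, and the panels of Cdkn2a and Cdkn2b end below 1 CPM.

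Among the Cip/Kip genes, Cdkn1c, which encodes p57, had the largest fold change of the 8. Its normalised level, sham before DMM, was 12.0 and 17.1 CPM in M04 and 9.15 and 14.4 CPM in M05. Both DMM libraries were above both sham libraries. The log2 fold change was 0.58 (SE 0.24, 95% interval 0.10 to 1.05), with a positive ratio in 2 of 2 mice (0.50 and 0.64), and by edgeR's test the unadjusted p was 0.0176 and the adjusted p = 0.640. Cdkn1a, which encodes p21, had 21.3 and 28.6 CPM in M04 and 20.5 and 25.8 CPM in M05, sham before DMM. Here too both DMM libraries were above both sham libraries. Its log2 fold change was 0.38 (SE 0.19, 95% interval 0.00 to 0.75), positive in 2 of 2 mice (0.43 and 0.33), with an edgeR unadjusted p of 0.0477 and an adjusted p = 0.943. Cdkn1b, which encodes p27, had 15.2 and 15.4 CPM in M04 and 11.5 and 9.28 CPM in M05. Its libraries overlapped between the knees, and the log2 fold change was -0.14 (SE 0.25).

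Of the 8 genes, 2 had both DMM libraries above both sham libraries, as did 13.2% of all tested genes. A further 2, Mdm2 and Rb1, had both DMM libraries below both sham libraries, as did 12.3%. The same genes were the ones higher (2 of 8, against 23.2% of all) or lower (2 of 8, against 23.8%) in the DMM knee of each mouse. By CPM of the library total, without TMM scaling, both DMM libraries were still above both sham libraries for Cdkn1a and Cdkn1c, and for Cdkn2d as well. On that scale Mdm2 and Rb1 overlapped between the knees, and the median log2 fold change of all genes moved by 0.11. With each library left out in turn the log2 fold change ran from 0.31 to 0.45 for Cdkn1a and from 0.39 to 0.78 for Cdkn1c.

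Markers of other cell types moved in the same libraries as Cdkn1c and Cdkn1a. The 5 fibroblast markers, of which 3 were called higher in DMM knees, summed to 133 and 469 CPM in M04, sham before DMM. In M05 they summed to 101 and 218 CPM. Most of the rise was that of Col3a1, with 75.6 and 394 CPM in M04 and 43.9 and 150 CPM in M05. Pi16 was lower in the DMM knee, with 39.9 and 34.9 CPM in M04 and 45.2 and 43.2 CPM in M05. Thy1 had a log2 ratio of 0.35 in each mouse. The 11 cartilage markers, of which 7 were called higher, summed to 5810 and 6680 CPM in M04 and 1580 and 5080 CPM in M05. The 5 osteoblast markers, of which 1 was called higher, summed to 5920 and 6530 CPM in M04 and 4680 and 5350 CPM in M05. The 6 erythroid markers went the other way, with 133000 and 103000 CPM in M04 and 174000 and 139000 CPM in M05. All 6 had negative fold changes, and none was called. None of these markers was at 0 in any library. Their part in the values of Cdkn1c and Cdkn1a was not tested.

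The profile of Cdkn1c, which varied most over the libraries (1.86 times from lowest to highest), was set against those of 9455 genes that averaged 5 CPM or more. The measure was the Euclidean distance between log2 CPM values centred on each gene's mean over the 4 libraries. Among the nearest genes were Plekha1 (distance 0.05), C1ra (0.07), Nupr1 (0.08) and Fkbp9 (0.09). C1ra, a complement protease, had 10.7 and 14.3 CPM in M04 and 8.09 and 12.8 CPM in M05. Nupr1, a stress-induced nuclear protein, had 27.0 and 36.2 CPM in M04 and 19.8 and 29.8 CPM in M05. With 4 libraries many genes share a shape, and the distance carries no test.

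Of the Ink4 genes, Cdkn2a, the source of p16 and Arf, was close to the limit of detection in every library. It had 4 and 0 counts in M04, sham before DMM, and 13 and 4 counts in M05. The exact Poisson interval of the count of 0 reached 3.69 counts. The highest level was 0.672 CPM of the total, in the sham library of M05 (exact Poisson interval 6.92 to 22.2 counts). In M05 the ratio of DMM to sham, per total count, was 0.468, with an exact 95% interval of 0.111 to 1.51, and in M04 the interval reached from 0 to 1.47. Both intervals include a ratio of 1, so no difference between the knees was detected in either mouse. These intervals cover counting error only. In a fit without the filter on low counts, the log2 fold change was -2.03 (SE 1.74).

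Cdkn2b, which encodes p15 and lies beside Cdkn2a on chromosome 4, was as scarce. It had 8 and 5 counts in M04 and 0 and 4 counts in M05, sham before DMM. The ratio of DMM to sham was 0.608 in M04 (exact 95% interval 0.157 to 2.11). In M05 the exact Poisson intervals were 0 to 3.69 counts for the sham and 1.09 to 10.2 counts for the DMM library. The counts went in opposite directions in the mice, and without the filter the log2 fold change was 0.79 (SE 1.80).

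The other Ink4 genes had 435 to 1164 counts per library. Cdkn2c had 34.8 and 37.2 CPM in M04 and 46.4 and 35.7 CPM in M05. The sham library of M05 was the highest of the 4, and the ratios of the mice differed in sign (0.10 and -0.38). The log2 fold change was -0.14 (SE 0.17, 95% interval -0.48 to 0.20). Cdkn2d had 58.2 and 56.6 CPM in M04 and 68.3 and 71.7 CPM in M05, with a log2 fold change of 0.02 (SE 0.16, 95% interval -0.30 to 0.33). With TMM scaling both libraries of M05 were above both of M04 for Cdkn2d. By CPM of the library total they were not, with 60.9 and 63.9 CPM in M04 and 60.2 and 68.7 CPM in M05.

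Trp53 itself had 1.18 times between its lowest and highest library on the TMM scale, the smallest range of the 8 genes there. By CPM of the library total it ran from 58.1 to 87.6, a wider range than that of Cdkn2d (60.2 to 68.7). It had 71.0 and 77.7 CPM in M04 and 65.9 and 65.7 CPM in M05. The log2 fold change was 0.06 (SE 0.16, 95% interval -0.24 to 0.37). Mdm2 had 20.3 and 17.9 CPM in M04 and 20.8 and 13.0 CPM in M05. Its DMM libraries were the lower ones in 2 of 2 mice, with ratios of -0.18 and -0.68. The log2 fold change was -0.43 (SE 0.21, 95% interval -0.85 to -0.01), with an unadjusted p of 0.0440 and an adjusted p = 0.920 by edgeR. It was -0.21 without DMM replicate 5 and -0.66 without DMM replicate 4. Rb1 had 30.1 and 30.0 CPM in M04 and 32.7 and 23.3 CPM in M05. The DMM library of M05 stood below the other 3, and the log2 fold change was -0.25 (SE 0.18, 95% interval -0.61 to 0.11). It was -0.07 without DMM replicate 5 and -0.43 without DMM replicate 4. On the GRCm38 annotation, exons of Rb1 overlap with those of Lpar6 and Rcbtb2 on the opposite strand. The use of strand in counting is not stated. Sham before DMM, the unscaled counts in M05 were 134 and 46 for Lpar6, 553 and 278 for Rcbtb2 and 558 and 284 for Rb1. In M04 they were 78 and 79, 278 and 348, and 407 and 448. The sham library of M05 had the largest total count. How far reads of these neighbours enter the value of Rb1 was not tested. Exons of Cdkn1a and Cdkn1c likewise overlap with opposite-strand models, AC167363.2 and Gm44732.

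**Figure D3:**
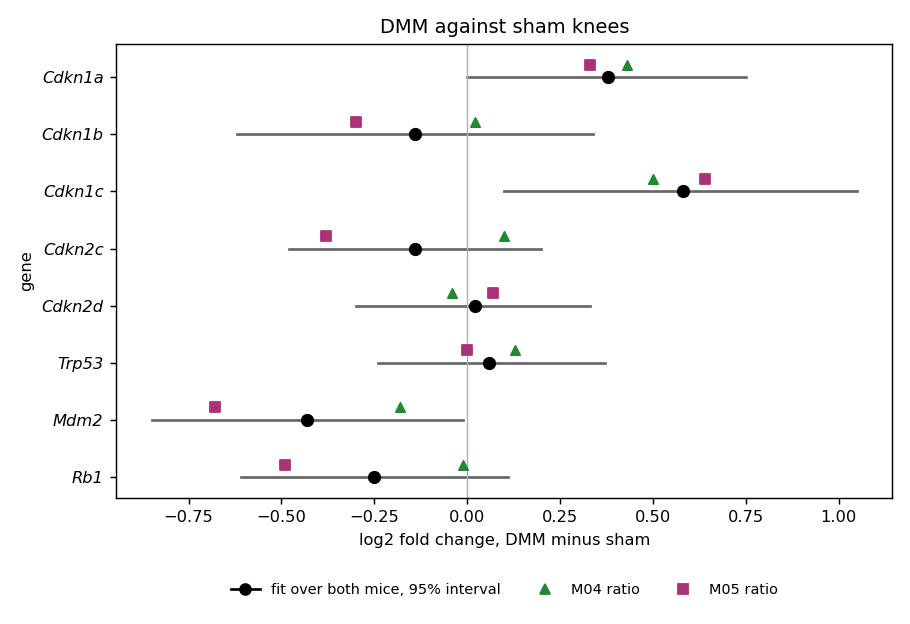
Log2 fold change of DMM against sham on the horizontal axis for the 8 tested genes, with black points for the fit over both mice, grey lines for its 95% interval, and the ratio within M04 (triangles) and M05 (squares). The largest are Cdkn1c at 0.58 and Mdm2 at -0.43, and none passed an adjusted p of 0.05.

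Counts of 2 genes in the same library can be compared without any scaling between libraries. These pairs were chosen after the values were seen, so they are a description. Mdm2 made up 22.2% of the summed Mdm2 and Trp53 counts in the sham library of M04 (exact 95% binomial interval 19.9 to 24.6). In its DMM library the share was 18.7% (16.7 to 20.8). In M05 it was 24.0% (21.9 to 26.3) in the sham and 16.5% (14.2 to 19.0) in the DMM library. Both DMM shares were thus below both sham shares, with intervals that overlapped in M04 and not in M05. Mdm2 is a p53 target, so its counts beside those of Trp53 are a ratio of a target and regulator to the factor itself.

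Within the Cip/Kip family the shares of p21 and p57 beside p27 were higher in the DMM knee of each mouse. Cdkn1a made up 58.3% (53.8 to 62.7) and 64.9% (61.2 to 68.6) of the summed Cdkn1a and Cdkn1b counts in M04, sham before DMM. In M05 it made up 64.1% (59.9 to 68.1) and 73.5% (69.1 to 77.7). The sham share of M05 came close to the DMM share of M04, with overlapping intervals. Cdkn1c beside Cdkn1b went from 44.1% (39.0 to 49.4) to 52.5% (47.9 to 57.0) in M04 and from 44.3% (39.1 to 49.7) to 60.8% (54.9 to 66.4) in M05. For both pairs the intervals of sham and DMM overlapped in M04 and not in M05. Cdkn1b itself was lower in the DMM library of M05, with a log2 ratio of -0.30. For Cdkn2c beside Cdkn2d the mice went in opposite directions, from 37.4% to 39.7% in M04 and from 40.5% to 33.3% in M05.

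**Figure D4:**
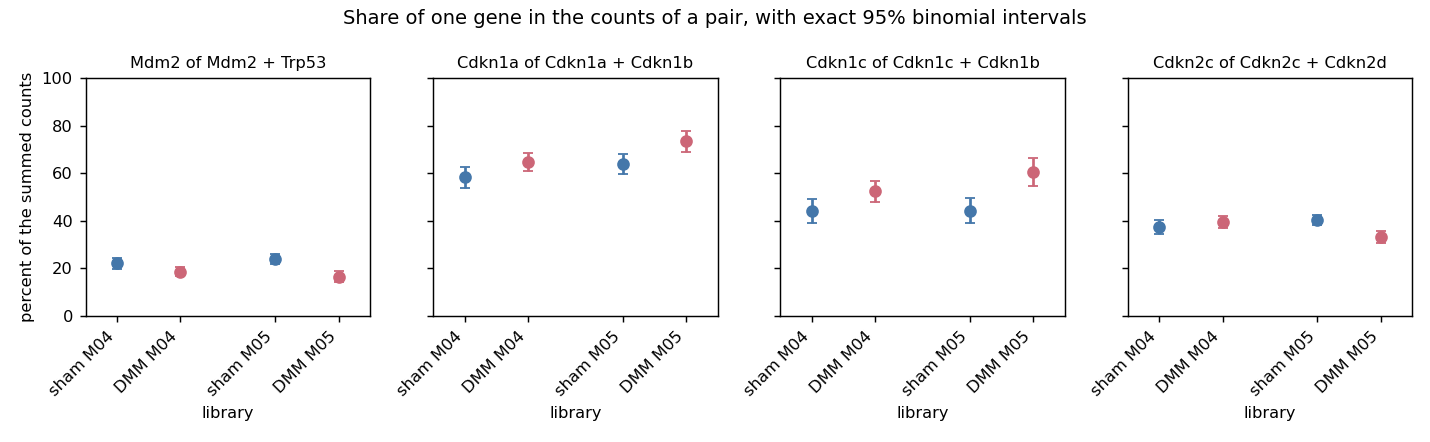
Share of the first gene in the summed counts of each pair, in percent on the vertical axis, by library (blue sham, red DMM), with exact 95% binomial intervals for counting error. The share of Mdm2 beside Trp53 is lower in the DMM library of each mouse (18.7% and 16.5%), and that of Cdkn1c beside Cdkn1b is higher (52.5% and 60.8%).

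Between the animals, M05 against M04, again 0 of the 8 genes passed in edgeR, against 2.60% of all tested genes. At an unadjusted p under 0.05 there was 1 of 8, Cdkn1b, against 14.3% of all genes. DESeq2 gave 0 of 8 at that level, and limma on log2(FPKM + 1) gave 1. Cdkn1b was lower in both libraries of M05, with a log2 fold change of -0.56 (SE 0.25, 95% interval -1.05 to -0.08, edgeR unadjusted p = 0.0217, adjusted p = 0.231). Without TMM scaling the fold change was -0.81 with an adjusted p of 0.0364 in edgeR, but there the median of all genes moved by -0.24. The share of higher genes among all calls fell there from 37.0% to 2.30%. Over the other alternatives the adjusted p of Cdkn1b was at most 0.782 and never under the threshold. Cdkn2d had a log2 fold change of 0.28 (SE 0.16) and Cdkn1c of -0.32 (SE 0.24), and neither passed. Without TMM scaling they were 0.04 and -0.56, and with each library left out in turn Cdkn1c ran from -0.67 to -0.02. Both libraries of M05 were above both of M04 in 1 of 8 genes (Cdkn2d), against 22.5% of all genes, and below in 2 of 8 (Cdkn1b and Trp53), against 22.8%. The summed granulocyte markers were higher in M05 (63600 and 54300 CPM) than in M04 (37700 and 37800 CPM). Of these 7 markers 2 were called higher, and the fold changes were positive for 6 and negative for 1. Of the 11 cartilage markers 9 were called lower in M05. Their part in the values of Cdkn1b and Cdkn2d was not tested.

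The third question was whether the mice responded alike. For each gene, the response of M05 minus that of M04 was tested in edgeR with no term for mouse or surgery, which counts both effects as spread. None of the 8 genes passed or had an unadjusted p under 0.05, against 0.0153% and 2.34% of all tested genes. The intervals were wide. The difference was -0.49 (95% interval -1.33 to 0.34) for Cdkn2c, -0.46 (-1.37 to 0.46) for Rb1, -0.43 (-1.60 to 0.73) for Mdm2 and -0.27 (-1.61 to 1.07) for Cdkn1b. It was 0.02 (-1.39 to 1.44) for Cdkn1c and -0.13 (-1.17 to 0.92) for Cdkn1a. This fit contrasts the mean levels of mixed pairs of libraries, so its value can depart from the difference of the ratios within the mice, which for Cdkn1c were 0.50 in M04 and 0.64 in M05. Differences of these sizes between the mice were therefore neither shown nor bounded tightly.

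The genes around these regulators were described by 8 lists with 116 tested members of 124, and 2 of the 116 were higher in DMM knees and none lower at an adjusted p under 0.05 in edgeR. Over all tested genes 0.633% were called higher and 0.0153% lower. Of 28 tested p53 targets none passed, with 15 positive and 13 negative fold changes and a median of 0.01. The nearest to the threshold were Trp53inp1 (-0.70, adjusted p = 0.265), which promotes p53-driven death, the death receptor Fas (0.83, adjusted p = 0.725) and Triap1 (0.54, adjusted p = 0.865). Trp53inp1 had ratios of 0.01 in M04 and -1.45 in M05, and Fas of 0.52 and 1.07. Of 14 regulators and relatives of p53 none passed (median -0.10), and the phosphatase gene Ppm1d, itself a p53 target, stood at -0.21. Trp63 and Trp73, the relatives of p53, had 0 to 11 counts and were not tested.

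In the Rb1 branch, none of 17 pocket protein, E2F and MuvB genes passed, 15 of the 17 had negative fold changes, and the median was -0.12. Over all tested genes 52.1% were negative and the median was -0.01. E2f6 stood at -0.40, E2f3 at -0.43 and Tfdp2, a partner of E2F proteins, at -0.21. The median of all genes moved by 0.11 without TMM, a shift about as large as this median, and the list was not summarised on that scale. None of 10 cyclins and CDKs of G1 and S phase passed (median -0.01). Cdk6, a target of the Ink4 proteins, had 0.55 with ratios of 0.43 and 0.64. None of 18 proliferation genes passed, with 15 negative fold changes and a median of -0.06, among them Bub1 (-0.28), Tyms (-0.13) and Pcna (-0.12). Of 11 genes for degradation of the inhibitors or their Polycomb silencing none passed either (median -0.13). Fbxw7 stood at 0.53. It is on this list, but it is part of the ligase that removes cyclin E, which is not an inhibitor. Skp1a, a subunit of the same kind of ligase, stood at -0.23.

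The secretory list was the one with called genes. Of its 15 tested genes 2 were higher, the inhibitor of metalloproteases Timp1 and the stromelysin Mmp3, and none lower, and the median was 0.21. Timp1 rose by 1.12 on the log2 scale (SE 0.19, edgeR adjusted p = 4.28e-06). Sham before DMM, it had 14.0 and 33.9 CPM in M04, and 18.4 and 36.1 CPM in M05. Mmp3 rose by 2.46 (SE 0.64, edgeR adjusted p = 0.0277), with 0.741 and 6.02 CPM in M04, and 0.469 and 1.64 CPM in M05. The sham values of Mmp3 rest on few reads. With limma on either FPKM scale 0 of all genes passed, and likewise in edgeR with surgery as the only term. Neither Timp1 nor Mmp3 was thus called in those fits. Both genes act in matrix turnover, and the summed levels of the fibroblast and of the cartilage markers given above were higher in the same libraries. Of the fibroblast markers, Pi16 went the other way in both mice. The part of these markers in the changes of Timp1 and Mmp3 was not tested. The cytokine Il6 had 0 to 6 counts per library, Ccl2 0 to 7, and Cxcl1, Cxcl2 and Areg had 0 in all 4. Of 3 other senescence marks, Lmnb1, the lamin that is lost in senescence, stood at 0.03, Hmgb1 at -0.15 and the lysosomal galactosidase Glb1 at 0.20, and none passed.

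**Figure D5:**
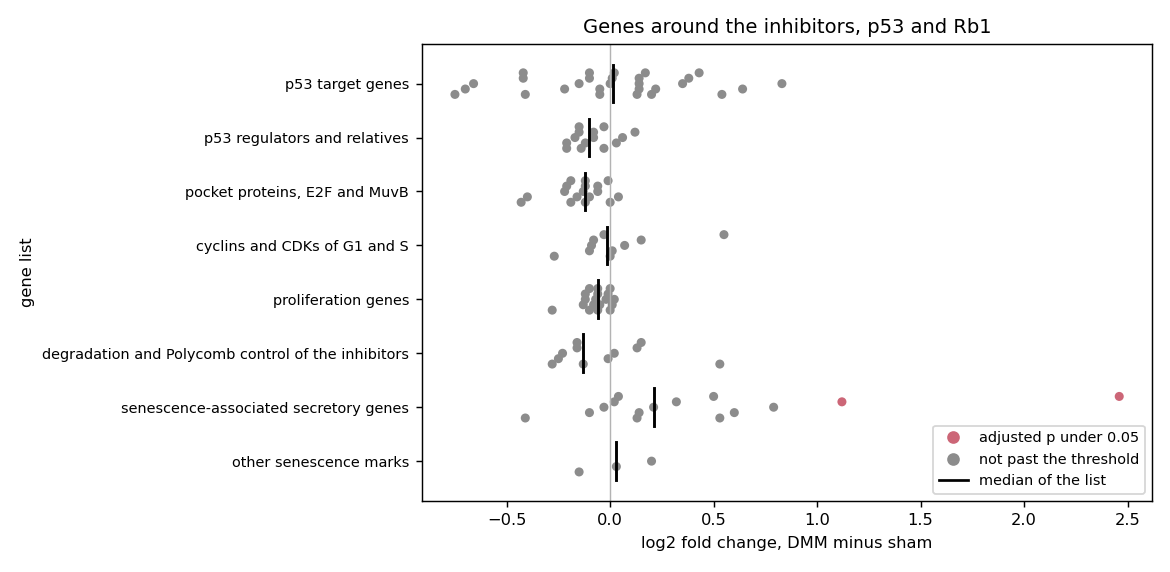
Log2 fold change of DMM against sham for the 116 tested genes of the 8 lists, on the horizontal axis, with 1 point per gene, red where the adjusted p was under 0.05, and a black bar at each list's median. The 2 red points are Timp1 at 1.12 and Mmp3 at 2.46 in the secretory list, and the medians of the lists run from -0.13 to 0.21.

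Between the mice, 3 of the 116 were called, 1 higher in M05 (against 0.962% of all genes) and 2 lower (against 1.64%). Rps27l, a p53-induced ribosomal protein relative, was higher in M05 by 0.60 (SE 0.16, edgeR adjusted p = 0.0138), with 51.0 and 52.4 CPM in M04 and 84.4 and 72.3 CPM in M05. Ep300, an acetyltransferase that acts on p53, fell by 0.76 (SE 0.18, edgeR adjusted p = 0.00283), from 42.0 and 38.4 CPM to 24.6 and 22.8 CPM. Igfbp5, an insulin-like growth factor binding protein, fell by 0.72 (SE 0.15, edgeR adjusted p = 0.000633). In the Rb1 branch the nearest was E2f8, at -0.49 with an adjusted p of 0.0764.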

How the data were processed

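The authors deposited estimated counts per gene, some of them fractional, and an FPKM table scaled for length and depth; per the submitters' processing notes the build was GRCm39 (mm39). Per the labels' protocols, poly(A) RNA was read as single-end reads of 100 bases. The aligner, the counter and the use of strand: not given in the sources used here. The copied count columns equalled the first ones and were not used.

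Whole-number rounded counts went into edgeR 4.0.16 (R 4.3.3). The function filterByExpr kept 13103 of 24421 genes, libraries were scaled by TMM, and a robust quasi-likelihood model took mouse and surgery as terms, with Benjamini-Hochberg adjustment over all tested genes and a threshold of 0.05. The mouse is a term because the labels give both knees of an animal; same-mouse deviations correlated at 0.13. This leaves 1 residual degree of freedom, and for 7 of the 8 genes tested here the spread came wholly from the trend across genes, so p-values say little of how far mice differ. Normalised CPM are TMM-scaled, and ratios within a mouse used a prior count of 2. Standard errors are the fold change over the square root of F. The difference of responses is the crossed coefficient doubled. The fits were also run on simulated data. That simulation took its spread from the trend across genes alone, so it says nothing of how far mice differ. Alternatives were DESeq2 1.42.0, limma 3.58.1 on the deposited FPKM values, other scalings, filters and leaving out libraries.

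All 10 genes were named. Of each list the genes past the threshold were named, otherwise up to 3 with the smallest p-values. The genes and lists were chosen with earlier results of these data known. A 95% confidence level was used for intervals. A gene among those nearest to Cdkn1c is not reported here.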

Additional observations from a re-analysis of the deposited data

How the results depend on the processing

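Over all alternatives, 0 of the 8 tested genes passed for DMM against sham. For M05 against M04 the number was 0 in all but the fit on library totals only, where 1 passed (Cdkn1b). With the compared factor as the only term, 0 of the 8 and 0 of all genes passed in either comparison. That fit lacks the mouse term for DMM against sham and the surgery term for M05 against M04. Over all genes, 85 passed for DMM against sham, against 35 with DESeq2 size factors, 53 with library totals only, 23 with haemoglobin rows left out, 13 with DESeq2, 0 with limma on either FPKM scale, and 0 to 121 with 1 library left out. For M05 against M04, 341 passed, against 186, 912, 103, 57, 0 and 0 to 331 in the same order, and 569 at an adjusted p of 0.1. For the difference of responses 2 passed, against 4 with library totals only, 24 with no filter, and 0 with a mean of at least 5 CPM or with no robust moderation. The cause was not tested.

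For DMM against sham, 4 genes changed sign with 1 library left out: Cdkn1b (-0.52 to 0.21), Cdkn2c (-0.35 to 0.07), Cdkn2d (-0.16 to 0.18) and Trp53 (-0.06 to 0.18). Those fits lack the mouse term. Cdkn1a, Cdkn1c, Mdm2 (-0.66 to -0.21) and Rb1 (-0.43 to -0.07) kept their sign in all alternatives run. For M05 against M04 the ranges were -0.30 to 0.12 for Cdkn1a, -0.01 to 0.37 for Cdkn2c, -0.55 to 0.13 for Mdm2 and -0.36 to 0.13 for Rb1. With library totals only, Cdkn2c stood at -0.06 there and the difference of responses of Cdkn1c at -0.09. For M05 against M04, DESeq2 gave no adjusted p for 6 of the 8 genes, so its count rests on the others. Of 274 alternatives for single genes, 260 kept direction and side of the threshold. No main adjusted p in edgeR was under 0.231, so keeping the side says little. The size of a fold change could still move. Depth limits Cdkn2a and Cdkn2b, which had at most 13 counts in a library.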
